A study of Mus musculus with 6 samples.

Results

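The genes described here encode 38 plasma proteins of the complement, lectin, clotting and fibrinolysis systems that the liver makes. They were chosen by name and by their place in these cascades, with earlier results of these data known, and all 38 were found among the 55536 genes of the deposited files through their Ensembl identifiers in GENCODE M21. Of the 38, 18 belong to complement and 20 to coagulation and fibrinolysis. The study sequenced total RNA of liver from male mice of the inbred strain C57BL/6, which entered it at the age of 6 weeks. The PS-MP group (3 libraries) received polystyrene microplastics, small particles of a common packaging plastic, by mouth: the dose was 0.4 mg/day, given 2 times weekly for 8 weeks. The water group (3 libraries) received water by mouth for the same time and as often. Whether the 3 libraries of a group are 3 animals is not said, and a p-value here therefore covers the variation among libraries, which may be technical. The values are FPKM, reads scaled to the exon length of the gene and to the size of the library by the authors. Scaling by length makes levels only roughly comparable between genes, since the length is that of all annotated exons of a gene, merged. It falls short most where a gene shares much of its exons with another gene, as Cfb, C2, Klkb1, Masp2 and Serpinc1 do.

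Complement is a chain of plasma proteases and binding proteins that marks microbes and damaged cells. Its classical, lectin and alternative pathways meet at C3, and the terminal proteins then assemble a pore in the target membrane. Clotting is a second protease chain, which ends when thrombin cuts fibrinogen into fibrin, and plasmin later dissolves the fibrin. Hepatocytes secrete most of these proteins, several of them are acute phase proteins that rise in inflammation, and liver disease is known to lower clotting factors in blood. Both chains are held in check by protease inhibitors of the serpin family, which the liver also makes.

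No change was called among the 38 genes. In the limma-trend fit, with p-values adjusted by Benjamini-Hochberg across the 13299 genes tested, 0 of 38 had an adjusted p under 0.05, where the share over all genes was 0.489%; the smallest adjusted p among the members was 0.367, that of F7. Unadjusted p was under 0.05 for 4 of 38 members, against 13.1% of all genes tested. In the 38 genes the estimated log2 fold change ran from -0.17 for Mbl1 to 0.33 for C2, with a median of 0.03, against 0.01 over all genes tested. The 95% interval of the fold change lay within 1.5-fold in either direction for 37 of 38 members (97.4%), against 82.8% of all genes tested and 87.8% of the 1520 other genes with a mean of at least 20 FPKM. The exception was C2, whose interval reached 1.57-fold. A fold change here is on the scale of FPKM + 0.5.

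**Figure D1:**
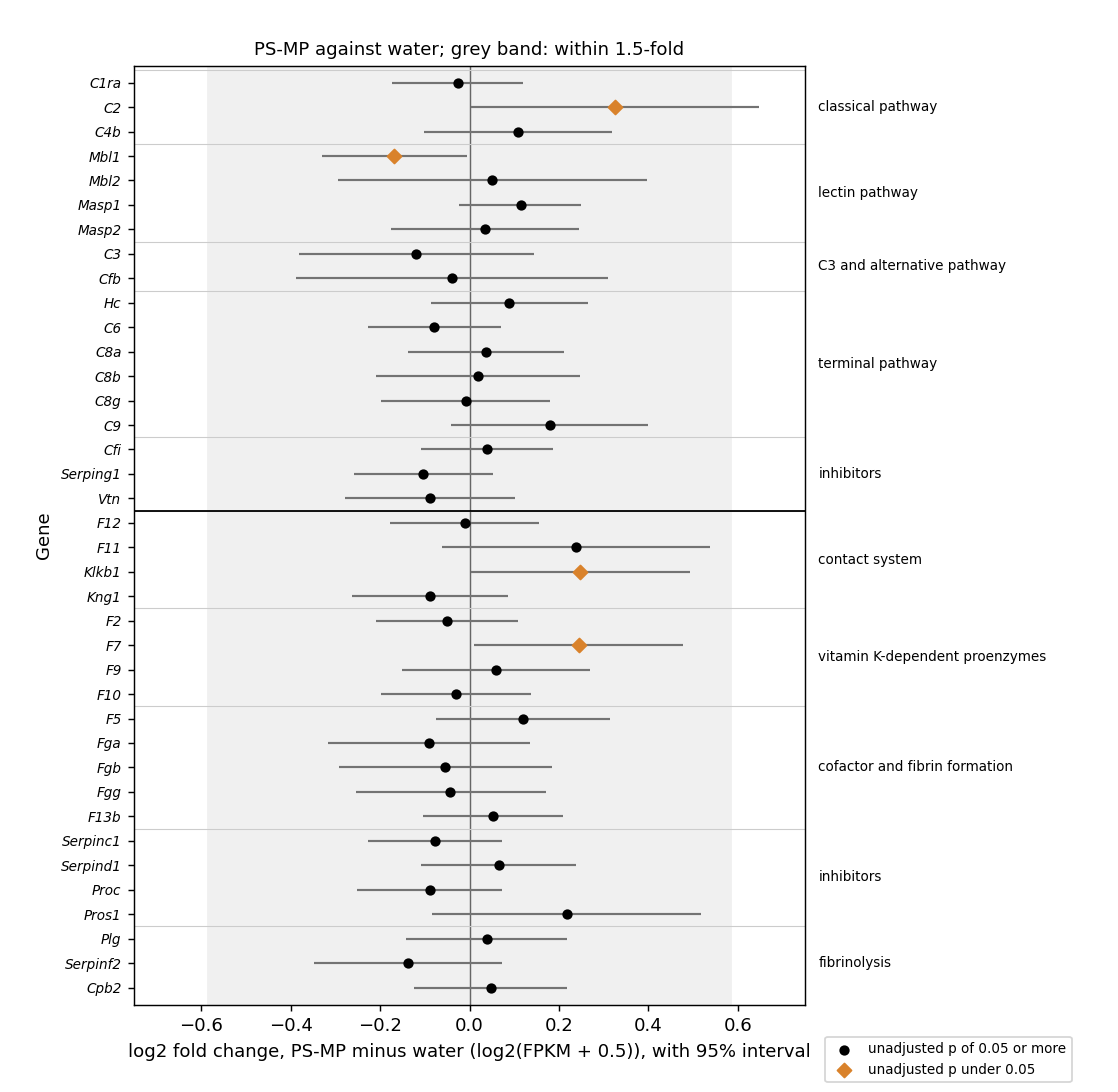
Log2 fold change of each of the 38 genes, PS-MP minus water, with its 95% interval from limma-trend (n = 3 libraries per group); genes are grouped by cascade and the grey band spans 1.5-fold in either direction. The C2 interval is the one that leaves the band, and the diamonds mark the 4 genes with an unadjusted p under 0.05.

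The 6 libraries held 13082210 to 16948343 reads as recovered from the FPKM values. Markers of hepatocytes were abundant in all 6, with 9 of 10 listed markers above 1 FPKM in every library and the other one, Tf, not matched by its symbol, so the label of liver fits its markers. PS-MP replicate 3 stood apart: 10 brain markers summed to 3228 reads there, against 190 to 210 in water and 344 and 407 in the other PS-MP libraries, and albumin took 5.77% of its reads, against 6.98% to 7.95% in the other 5. Fat markers were uneven too, at 1199 reads in water replicate 1 and 91 to 561 in the rest. In bulk liver, fewer cells of a type and less RNA per cell cannot be told apart. The part of these libraries in the values below was not tested. Values without PS-MP replicate 3 are given beside some members and not others, so a missing value does not mean a small shift. Without that library, the log2 fold change went from 0.03 to -0.06 for Masp2 and from -0.04 to -0.14 for Cfb.

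The 38 transcripts spanned a wide range of levels. C3, the protein on which all 3 complement pathways meet, stood highest, with a mean of 1398.64 FPKM over the 6 libraries, and the fibrinogen chains Fga, Fgg and Fgb came next. Then followed Vtn (553.06), Plg (475.58) and Kng1 (473.23). In all, 23 of the 38 had a mean above 100 FPKM. The lowest were Cfb at 1.70, C2, Masp1, F11 and Pros1. These ranks follow the deposited FPKM, with no correction for shared exons, and depend on the exon length. Masp1, with 9833 bases of merged exons, had 2913 to 3665 reads, and Mbl1, with 1570 bases and a higher FPKM, had 1659 to 2346. Replicates of water differed little: the coefficient of variation had a median of 6.1% over the 38 genes, from 1.9% in Masp1 and C9 to 22.2% in Mbl2, against 10.4% over all genes tested and 6.3% over the other genes of at least 20 FPKM. Replicates of the members thus varied about as much as those of other abundant transcripts.

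**Figure D2:**
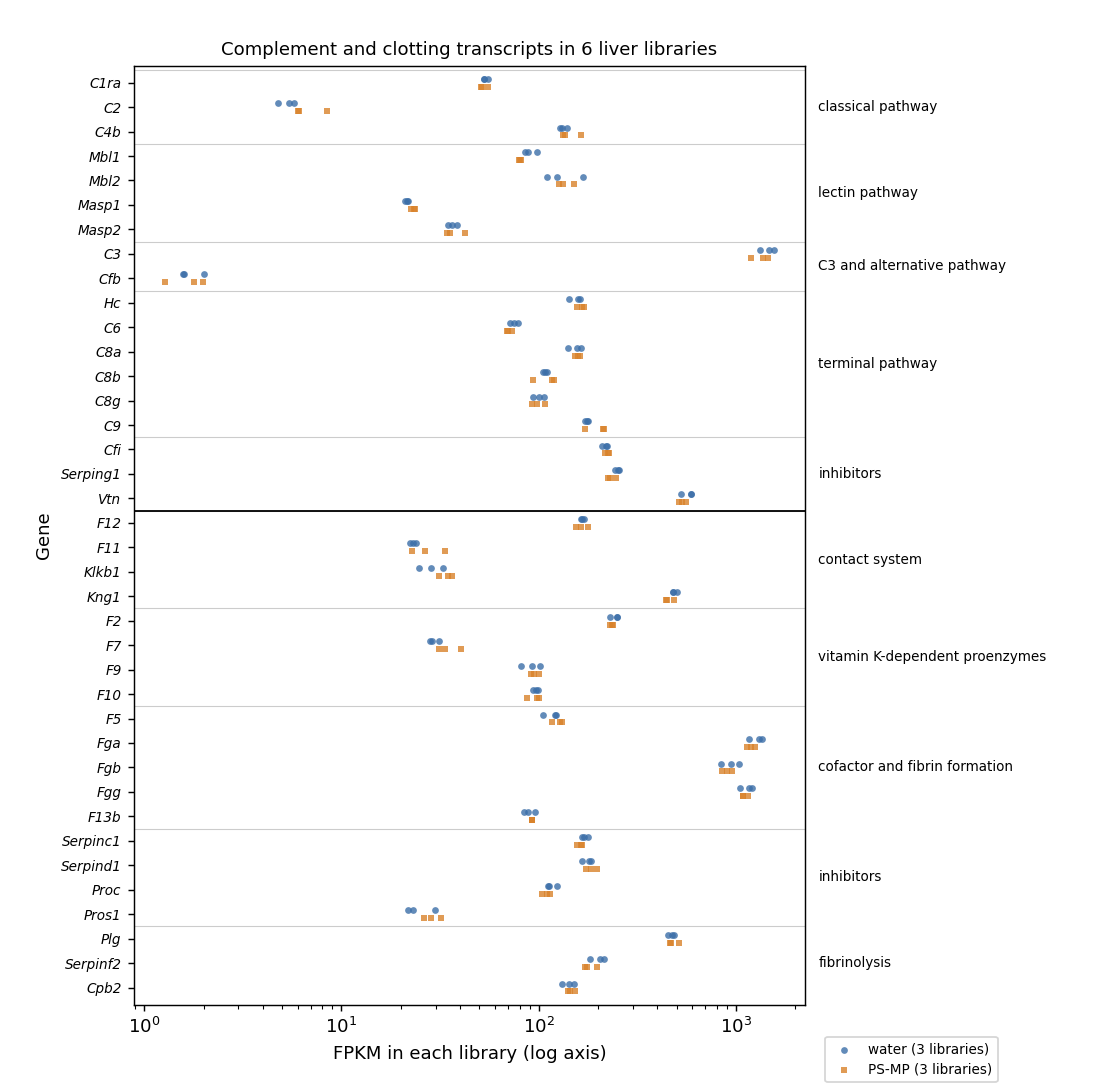
FPKM of the 38 genes in each of the 3 water libraries (circles) and 3 PS-MP libraries (squares) on a log axis, grouped by cascade. Levels run from about 1.27 FPKM for Cfb to 1568.09 for C3, and circles and squares lie apart in C2, Masp1 and Mbl1.

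Summed over the 38 genes, the share of a library's reads differed by less than the spread between replicates. They held 3.46%, 3.21% and 3.32% of the reads in water replicates 1, 2 and 3, and 3.15%, 3.35% and 3.20% in PS-MP replicates 1, 2 and 3. Each mean is given ± SD over 3 libraries here and below. The means were 3.33% ± 0.12 in water and 3.23% ± 0.10 in PS-MP, and the groups overlapped. Complement took 1.39% ± 0.08 in water and 1.34% ± 0.07 in PS-MP, and coagulation with fibrinolysis 1.94% ± 0.10 and 1.89% ± 0.05. The 3 fibrinogen chains alone took 0.981% ± 0.082 in water and 0.936% ± 0.043 in PS-MP, and C3 0.749% ± 0.064 and 0.69% ± 0.068. The remaining 34 genes took 1.602% ± 0.038 in water and 1.61% ± 0.05 in PS-MP.

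Set side by side, the 2 systems had similar distributions of fold changes. Of the 18 complement genes, 10 had a positive and 8 a negative fold change, with a median of 0.03 on the log2 scale. Of the 20 coagulation and fibrinolysis genes, 10 were positive and 10 negative, with a median of 0.01, which was -0.003 with median-of-ratios scaling. Over all genes tested, 53.7% were positive. The medians of single libraries differed more: the median of the complement genes relative to their water means was 0.07 in water replicate 1, -0.08 in PS-MP replicate 1 and 0.08 in PS-MP replicate 3, and that of the coagulation genes was 0.04, -0.03 and 0.05. Water replicate 2 had the lowest value of the 6 libraries for 15 of 38 genes and PS-MP replicate 1 for 13, and PS-MP replicate 3 had the highest for 14. Over all genes tested these shares were 19.8%, 15.7% and 26.6%.

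**Figure D3:**
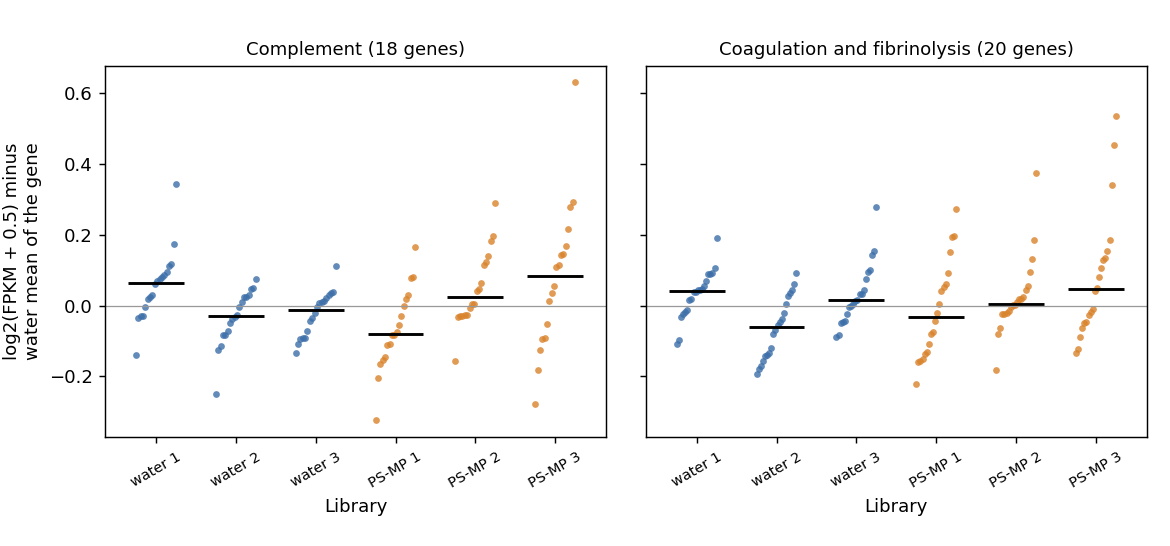
Log2(FPKM + 0.5) of each complement gene (18 genes, left) and each coagulation or fibrinolysis gene (20 genes, right) minus its mean in water, by library, with the median as a bar. The medians lie between -0.08 and 0.08 in every library, and the points above 0.4 belong to PS-MP replicate 3.

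The fibrinogen genes lie side by side on chromosome 3 of GRCm38 and encode the chains of 1 protein, so their promoters are shown first. RefSeq's table of promoters (GRCm38.p6) has an entry for 29 of the 38 genes. The 150 bases before the RefSeq start site are printed 5′ to 3′ on the strand of the gene. Capitals mark matches on either strand to any of the motifs searched: GTTAAT (a core of the site of HNF1, a liver transcription factor), TTGCNNAA (a C/EBP site), CTGGGAA (an interleukin 6 response element), CAAAGTCCA (an HNF4 site) and TTATGTAA (the D-box of DBP and its relatives). No 2 matches in these genes overlap. The sequences lie at chr3:83026003-83026152 on the plus strand for Fga, chr3:83049864-83050013 on the minus strand for Fgb and chr3:83007574-83007723 on the plus strand for Fgg. The Fga gene begins at 83026076 in GENCODE and at 83026153 in RefSeq, so part of the Fga window lies inside that longer gene model.
Fga: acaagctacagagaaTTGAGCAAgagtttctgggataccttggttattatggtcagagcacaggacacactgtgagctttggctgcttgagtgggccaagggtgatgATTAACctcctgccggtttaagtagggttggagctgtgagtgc
Fgb: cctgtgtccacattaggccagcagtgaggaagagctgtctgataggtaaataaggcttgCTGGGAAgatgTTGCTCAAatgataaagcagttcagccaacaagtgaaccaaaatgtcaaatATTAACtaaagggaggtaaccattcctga
Fgg: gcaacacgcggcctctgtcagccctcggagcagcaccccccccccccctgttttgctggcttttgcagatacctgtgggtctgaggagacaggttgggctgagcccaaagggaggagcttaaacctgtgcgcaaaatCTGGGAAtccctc

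Fga and Fgb each held a GTTAAT and a TTGCNNAA match, and Fgb and Fgg each held a CTGGGAA match. In the 250 bases before the start site, GTTAAT was found in 8 of the 29 genes (F13b, Hc, Fga, Fgb, C8b, C8a, C1ra and Vtn; 27.6%), against 6.43% of the 32851 promoters in the table. TTGCNNAA was found in 7 (Fga, Fgb, F11, Klkb1, C9, C3 and F9; 24.1%), against 9.56%, and CTGGGAA in 5 (Fgg, Fgb, Masp2, C1ra and F9; 17.2%), against 9.1%. CAAAGTCCA and TTATGTAA were found in 0 of 29, against 0.384% and 0.819%. These are matches of letters in a short window.

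The fibrinogen chains were among the most abundant transcripts and had small negative estimates. Fga, the fibrinogen alpha chain (chromosome 3, 83026076 to 83033627, 6 merged exons), stood at 1309.26, 1161.87 and 1359.59 FPKM in water and 1142.43, 1253.38 and 1197.99 in PS-MP. Fgb, the beta chain, was measured at 946.22, 838.89 and 1033.12 in water and 850.73, 950.96 and 905.14 in PS-MP. Fgg, the gamma chain, stood at 1209.82, 1046.83 and 1163.79 in water and 1080.97, 1144.85 and 1089.84 in PS-MP. Water replicate 2 was the lowest water library for all 3 chains, PS-MP replicate 1 the lowest PS-MP library, and the groups overlapped in each. The log2 fold changes were -0.09, -0.05 and -0.04, with limma standard errors of 0.10, 0.10 and 0.09. The ratio of Fga to Fgb was 1.36 ± 0.04 in water and 1.33 ± 0.01 in PS-MP, and that of Fgb to Fgg was 0.82 ± 0.06 and 0.82 ± 0.03, and both ratios overlapped between the groups. F13b, the carrier subunit of the factor that crosslinks fibrin, had 89.1 ± 5.84 FPKM in water and 92.3 ± 0.19 in PS-MP. F5, the cofactor that speeds thrombin formation, had 116.1 ± 9.78 and 126.0 ± 7.65.

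The proenzymes that need vitamin K were led by F2, prothrombin, with means of 243.4 ± 12.7 (water) and 234.8 ± 4.66 FPKM (PS-MP). F10, which cuts prothrombin, had 97.0 ± 2.79 and 95.1 ± 6.88, and F9, the factor lacking in haemophilia B, had 92.2 ± 10.4 and 95.6 ± 4.27. The groups overlapped for all 3. The F10 and F9 means differed by less than the SD of either group, and the F2 means by less than the water SD but more than the PS-MP SD. F7, which starts clotting with tissue factor (chromosome 8, 13026034 to 13035809, 8 merged exons), had the smallest p of the 38. Its values were 31.35, 27.99 and 28.86 FPKM in water and 31.33, 33.48 and 40.42 in PS-MP. PS-MP replicate 3 was the highest, and PS-MP replicate 1 fell just inside the water range, so the groups overlapped. The log2 fold change was 0.24 with a standard error of 0.10 (unadjusted p = 0.0428, adjusted p = 0.367 by limma-trend), and 0.14 without PS-MP replicate 3 (unadjusted p = 0.117 by limma). F10, the next member along the chromosome (13037308 to 13056676), had a log2 fold change of -0.03. The ratio of F7 to F10 was 0.315, 0.288 and 0.307 in water and 0.359, 0.341 and 0.405 in PS-MP, which do not overlap. It is 1 of 15 ratios computed, chosen with the values of the genes known, and 2 of the 15 did not overlap. The window before the F7 start site (chr8:13025884-13026033, plus strand) is shown because this gene came nearest to a call; it holds none of the motifs searched.
F7: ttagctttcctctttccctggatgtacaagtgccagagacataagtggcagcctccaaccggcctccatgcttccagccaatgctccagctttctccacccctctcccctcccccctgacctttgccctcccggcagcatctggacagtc

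Contact activation, the surface-triggered start of clotting, gave a mixed picture. F12, its first protease, had 166.7 ± 3.85 FPKM in water and 165.6 ± 11.7 in PS-MP. Kng1, which encodes the bradykinin precursor, had 479.0 to 502.97 in water and 444.23 to 487.75 in PS-MP. The groups overlapped for both, although the Kng1 means lay further apart than the SD of either group. The near copy Kng2 stood at 66.3 to 73.8 FPKM in the 6 libraries, so reads of Kng1 and Kng2 could be split between them. Klkb1, the plasma prekallikrein that releases bradykinin (chromosome 8, 45266689 to 45294859), had 32.59, 24.84 and 28.56 FPKM in water and 34.53, 31.27 and 36.19 in PS-MP. Water replicate 1 lay above PS-MP replicate 2, so the groups overlapped. Its log2 fold change was 0.25, standard error 0.11 (unadjusted p = 0.0482, adjusted p = 0.379 by limma-trend), and it was 0.20 without PS-MP replicate 3 (unadjusted p = 0.125 by limma), 0.15 without water replicate 2 and 0.34 without water replicate 1. F11, its close relative at the same locus, had 23.78, 22.26 and 23.00 in water and 26.38, 22.74 and 33.57 in PS-MP. Its estimate of 0.24 (standard error 0.13) was 0.09 without PS-MP replicate 3 and 0.36 without PS-MP replicate 2, which lay inside the water range.

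Among the inhibitors of clotting, Serpinc1, which encodes antithrombin, had 171.3 ± 6.73 FPKM in water and 162.3 ± 4.58 in PS-MP. Serpind1, heparin cofactor II, had 176.8 ± 9.03 and 185.0 ± 11.2. Proc, the protease protein C that destroys activated factors V and VIII, had 116.1 ± 6.37 and 109.1 ± 5.02. All 3 pairs of groups overlapped. Pros1, the cofactor of protein C, had 23.00, 21.69 and 29.97 in water and 28.29, 32.11 and 26.09 in PS-MP. Here water replicate 3 was the second highest of the 6 libraries, and the log2 fold change of 0.22 had a standard error of 0.13. Without that library it was 0.36 (unadjusted p = 0.011 by limma), and without water replicate 2 it was 0.13. In fibrinolysis, Plg, the plasminogen that becomes plasmin, had 469.2 ± 16.4 and 482.0 ± 28.9 FPKM. Serpinf2, which blocks plasmin, had 199.8 ± 17.2 and 181.5 ± 14.4, and Cpb2, which protects fibrin from plasmin, had 141.2 ± 9.80 and 145.8 ± 5.77. Each differed by about its spread or less. The ratio of Plg to Serpinf2 was the other ratio whose groups did not overlap, at 2.25, 2.49 and 2.32 in water and 2.70, 2.67 and 2.60 in PS-MP.

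In complement, the classical pathway held the largest estimate of all 38 genes. C2, whose protein supplies the protease of the C3 convertase (chromosome 17, 34862604 to 34898265), had 4.76, 5.42 and 5.76 FPKM in water and 6.00, 6.08 and 8.48 in PS-MP. The groups did not overlap, although PS-MP replicates 1 and 2 lay close above water, and PS-MP replicate 3 was the highest. The log2 fold change was 0.33 with a standard error of 0.14 (unadjusted p = 0.0484, adjusted p = 0.379 by limma-trend), and it ran from 0.17 without PS-MP replicate 3 (unadjusted p = 0.136 by limma) to 0.41 without PS-MP replicate 1. C4b, the partner of C2, had 139.70, 130.65 and 128.96 in water and 135.73, 133.30 and 163.00 in PS-MP, again with PS-MP replicate 3 on top. The C4b log2 fold change was 0.11, and 0.02 without that library. Its near copy C4a had 2.54, 3.64 and 1.91 in water and 3.58, 4.09 and 8.00 in PS-MP (log2 fold change 0.80, standard error 0.29, unadjusted p = 0.0272, adjusted p = 0.314 by limma-trend), and 0.47 without PS-MP replicate 3 (unadjusted p = 0.0605 by limma). Reads of C4a and C4b could be split between the copies, so the C4a values are uncertain. C1ra, the protease that opens the pathway, had 53.7 ± 1.67 and 52.8 ± 2.40 FPKM, and its near copy C1rb had 0 to 3 reads in the 6 libraries.

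**Figure D4:**
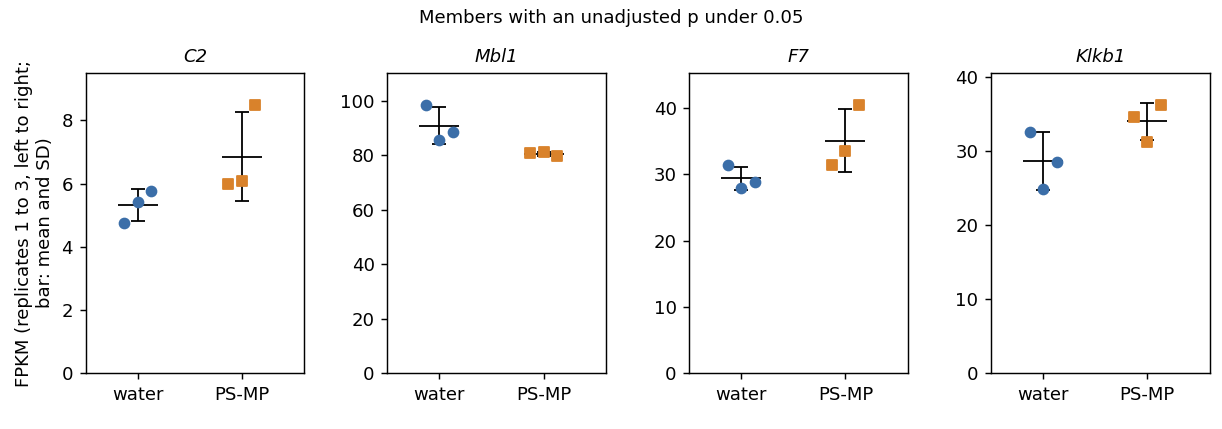
FPKM of C2, Mbl1, F7 and Klkb1, the members with an unadjusted p under 0.05, in each library (replicates 1 to 3 from left to right) with the mean and SD of 3 libraries per group; axes start at 0. PS-MP replicate 3 is the highest point for C2 (8.48), F7 (40.42) and Klkb1 (36.19), and the Mbl1 values of PS-MP (79.80 to 81.13) lie below those of water.

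The mannose-binding lectins, which recognise microbial sugars, are encoded by Mbl1 and Mbl2. Mbl1 (chromosome 14, 41151458 to 41159601, 5 merged exons) had 98.40, 85.42 and 88.43 FPKM in water and 80.77, 81.13 and 79.80 in PS-MP. All PS-MP values were lower than all water values, and they were much closer together. The log2 fold change was -0.17 with a standard error of 0.07 (unadjusted p = 0.0445, adjusted p = 0.369 by limma-trend), and -0.11 without water replicate 1, the highest library (unadjusted p = 0.159 by limma). Mbl2 had 167.43, 110.69 and 123.57 in water and 126.84, 151.06 and 133.01 in PS-MP, and varied more between water libraries than any other member. Its log2 fold change of 0.05 was 0.22 without water replicate 1 and -0.07 without water replicate 2. Masp1, a protease bound to these lectins, had 21.01, 21.81 and 21.54 in water and 22.65, 23.39 and 23.73 in PS-MP. Its groups did not overlap either, with a log2 fold change of 0.11 (standard error 0.06, unadjusted p = 0.0914, adjusted p = 0.465 by limma-trend). Masp2, the protease that cuts C4 and C2, had 36.4 ± 1.89 and 37.4 ± 4.30.

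C2, Masp1 and Mbl1 were the members whose groups did not overlap, 3 of 38, against 19.2% of all genes tested. Of these, 2 were higher and 1 lower, where the shares over all genes were 11.1% and 8.12%. Of the 4 members with an unadjusted p under 0.05, 3 (C2, F7 and Klkb1) were higher and 1 (Mbl1) lower, against 7.49% and 5.57% of all genes. Both counts are near or below the background.

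The windows before the Mbl1 and Mbl2 start sites are shown for comparison, since the genes encode proteins of the same function. They lie at chr14:41151306-41151455 and chr19:30232778-30232927, both on the plus strand. Capitals here mark the longest run of bases that the windows share, 13 bases long, which lies 23 to 11 bases before the start of Mbl1 and 57 to 45 before that of Mbl2. Neither window holds a motif of those searched.
Mbl1: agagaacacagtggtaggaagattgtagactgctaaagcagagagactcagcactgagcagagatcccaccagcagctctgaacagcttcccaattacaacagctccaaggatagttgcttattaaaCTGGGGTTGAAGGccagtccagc
Mbl2: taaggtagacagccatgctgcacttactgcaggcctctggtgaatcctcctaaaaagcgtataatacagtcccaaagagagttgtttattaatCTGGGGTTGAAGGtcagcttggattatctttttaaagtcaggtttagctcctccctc

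At the centre of complement, C3 (chromosome 17, 57203970 to 57228136, 42 merged exons) had 1568.09, 1476.41 and 1322.76 FPKM in water and 1369.66, 1457.72 and 1197.21 in PS-MP. PS-MP replicate 3 was lowest, the groups overlapped, and the log2 fold change was -0.12 with a standard error of 0.11, and -0.04 without PS-MP replicate 3. Cfb, the protease of the alternative pathway, stood at 2.0, 1.59 and 1.58 in water and 1.27, 1.78 and 1.99 in PS-MP, which do not separate. The level of Cfb is not comparable with the others: 79.5% of its exon length is shared with Gm20547, a gene model on the same strand that also covers 42.8% of C2 and had 0 reads in all 6 libraries. The handling of reads in shared exons, and of strand, is not given in the sources used. If none were counted, the level per unshared exon length would be 8.42 FPKM in water and 8.20 in PS-MP for Cfb, and 9.29 and 11.98 for C2. Klkb1 shares 43.2% of its exons with Gm45753 on the same strand, which had 0 to 1 reads. Masp2 shares 54.9% with Tardbp and Serpinc1 34.4% with Zbtb37, both on the opposite strand.

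Among the 6 genes of the terminal proteins, which build the membrane pore, 0 were called and the median log2 fold change was 0.03. Hc, which encodes C5, had 154.2 ± 10.8 FPKM in water and 163.9 ± 7.18 in PS-MP. C6 had 71.31 to 78.92 in water and 69.43 to 73.22 in PS-MP. The subunits of C8, encoded by C8a, C8b and C8g, had 154.3 ± 11.9, 107.9 ± 2.75 and 99.8 ± 6.24 in water, and 158.0 ± 4.73, 109.9 ± 14.3 and 99.3 ± 7.92 in PS-MP. C8a thus stood above C8b and C8g in both groups. The ratio of C8a to C8b ran from 1.31 in water replicate 2 and PS-MP replicate 2 to 1.74 in PS-MP replicate 1, and the groups overlapped. C9, which forms the wall of the pore, had 177.09, 170.94 and 176.05 in water and 170.97, 213.58 and 211.92 in PS-MP. PS-MP replicates 2 and 3 were above every water library and PS-MP replicate 1 was not. The log2 fold change was 0.18 (standard error 0.10, unadjusted p = 0.0989, adjusted p = 0.476 by limma-trend), and 0.28 without PS-MP replicate 1 (unadjusted p = 0.00692 by limma). It was smaller than 0.18 without PS-MP replicate 2 and also without PS-MP replicate 3. No other fit that left out 1 library gave C9 an unadjusted p under 0.05 by limma.

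The complement inhibitors gave no call. Cfi, the protease that cuts C3b and C4b, had 216.8 ± 6.53 FPKM in water and 222.7 ± 5.38 in PS-MP. Serping1, the C1 inhibitor that also blocks kallikrein, had 250.9 ± 5.72 and 233.7 ± 10.7, with 1 PS-MP library inside the water range. Vtn, vitronectin, which keeps the pore out of the host membrane, had 570.2 ± 36.2 and 535.9 ± 22.2.

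Among other genes of these systems, listed by role beside the 38, 1 was called. Of 31 other complement genes, 28 were tested, 0 were called, and 18 had a positive fold change (median 0.05). After C4a the smallest p belonged to C5ar1, the receptor of C5a, with means of 1.04 ± 0.14 (water) and 0.68 ± 0.21 FPKM (PS-MP) (log2 fold change -0.39, unadjusted p = 0.0335, adjusted p = 0.334 by limma-trend), and -0.24 without PS-MP replicate 3. Cd59b, a guard against the pore, had a log2 fold change of 0.35 and did not pass; it was 0.20 without PS-MP replicate 1 and 0.54 without PS-MP replicate 2. Of 31 other clotting and fibrinolysis genes, 20 were tested and 1 was called. That gene was S100a10, a subunit of a cell surface receptor for plasminogen, which fell from 68.62, 77.79 and 71.65 FPKM in water to 52.16, 52.91 and 48.89 in PS-MP (difference of -0.50 on the log2 scale, limma-trend standard error 0.07 and adjusted p = 0.0386). All PS-MP values were below all water values. The call was lost in each of the 6 fits that leave out 1 library, with adjusted p from 0.0835 to 0.16. Thbs1, an adhesive platelet protein, had a log2 fold change of -0.36, and Gp1ba, a platelet receptor for von Willebrand factor, 0.28; neither passed over all genes, and both had means under 1 FPKM in both groups.

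Of 9 genes of the vitamin K cycle and of clotting factor secretion, 9 were tested and 0 were called (median 0.06). Nqo1, a quinone reductase, had a log2 fold change of 0.32, and 0.20 without PS-MP replicate 2, and Mcfd2 and Lman1, the cargo receptor for factors V and VIII, had -0.10 and 0.10. In the list of acute phase proteins and interleukin 6 signalling, to which fibrinogen and C3 are functionally tied, 0 of 25 tested genes were called. The 95% interval lay within 1.5-fold for 13 of the 25, against 82.8% of all genes tested, so larger changes are not excluded for the others. There, 21 of 25 had a positive fold change, against 53.7% of all genes tested, with a median of 0.16, against 0.01. An unadjusted p under 0.05 was found for 5 of 25, all higher, against 7.49% of all genes in that direction. Socs3, a feedback inhibitor of that signal, had 1.78, 1.2 and 1.81 FPKM in water and 2.54, 4.90 and 2.88 in PS-MP (log2 fold change 0.88, unadjusted p = 0.00481, adjusted p = 0.168 by limma-trend). Socs3, the gene of this list with the smallest p, did not overlap between groups and was highest in PS-MP replicate 2. The values of Fga, Fgb, Fgg and C3 overlapped, with negative estimates. The contrast between Socs3, at a mean of 2.52 FPKM, and these abundant members was not tested. Il1r1 (0.75), Saa3 (0.51) and Orm3 (0.89) also had positive estimates that did not pass. Orm3 was at 0.52 without PS-MP replicate 3, and Il1r1 at 0.46 without water replicate 1.

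Of 20 transcription factors of liver secreted proteins, 1 was called over all genes, the clock output factor Dbp. It had 1.06, 3.29 and 1.63 FPKM in water and 9.60, 11.13 and 17.13 in PS-MP (log2 fold change 2.45, adjusted p = 0.0366 by limma-trend), and all PS-MP values were above all water values. The call was lost in the fits that leave out 1 library, with adjusted p from 0.0573 to 0.16, except the one without water replicate 2 (0.035). Its exons share 18% of their length with Sphk2 on the other strand. With Dbp included, 5 of the 20 were higher and 4 lower at an unadjusted p under 0.05 by limma-trend, against 7.49% and 5.57% of all genes. The groups did not overlap for 4 higher and 5 lower factors, against 11.1% and 8.12%. Onecut1 (1.66) and Stat5b (-0.42) were among the factors with the next smallest p and did not pass. Chosen after their values were seen, Hnf4a, the central activator of hepatocyte genes, had 166.85 to 199.93 FPKM in water and 178.20 to 199.99 in PS-MP, and Cebpa, a C/EBP factor, had a log2 fold change of 0.35 (unadjusted p = 0.0122, adjusted p = 0.237 by limma-trend).

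By level in the deposited FPKM, not corrected for shared exons, the members divided as follows. Of the 12 with the lowest mean (1.70 to 90.73 FPKM), 8 had a positive fold change, with a median of 0.08, against 50% of the 8097 other genes in that range. Of the 13 in the middle (93.9 to 166.81 FPKM), 8 were positive, with a median of 0.04, against 50.4% of 131 other genes. Among the 13 with the highest mean (180.88 FPKM and above), 4 were positive, with a median of -0.05, while 53.9% of the 165 other genes in that range were positive. Positive estimates were also few among the abundant hepatocyte markers, at 3 of the 9 tested, with a median of -0.13. The split by level is a description of the same genes in the same libraries.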

How the data were processed

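Liver RNA was sequenced in 6 libraries, 3 water and 3 PS-MP. The authors deposited FPKM per gene; per the submitters' processing notes, Trimmomatic 0.38, HISAT2 2.1.0, featureCounts 1.6.0 and DESeq2 1.22.1 were used. The notes name a human genome build, although the identifiers are those of mouse genes. With the exon lengths of GENCODE M21, the FPKM values came out as whole reads within 0.01 reads, which gave totals of 13082210 to 16948343. A gene was tested with at least 0.66 CPM in 3 libraries and 15 reads in all. The test was limma-trend (limma 3.58.1, R 4.3.3) on log2(FPKM + 0.5) with group as the only term, two-sided, adjusted over 13299 genes, and it was tested on simulated data. Alternatives changed the pseudocount, the rule on low counts, the scaling, the model and the libraries. All 38 members may be named; of each other list, called genes, up to 4 genes with the smallest p and near copies are named, of which some are not reported here. The members and lists were chosen with earlier results of these data known. Fewer reads give less precise values, and Cfb, with 47 reads at its lowest, is the least deeply measured member.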

Additional observations from a re-analysis of the deposited data

How the results depend on the processing

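No member was called in any alternative, and the fold changes of C2, F7, Klkb1, Mbl1, S100a10 and Dbp kept their sign in all of them. The members' median log2 fold change, 0.026, was -0.012 to 0.051 when 1 library was left out. The number of members with an unadjusted p under 0.05 was 4 in the reported fit, where the share over all genes was 13.1%. It was 2 with no rule on low counts (7.69% of all genes) and 2 with median-of-ratios scaling (13.2%). It was also 2 with the library total taken without the 20 most abundant genes (13.2%) and 2 with a replicate block (13.1%). Leaving out 1 library in turn gave 0 (without PS-MP replicate 3, 11.5% of all genes) to 3. The shares over all genes in those fits were 8.97% to 13.4%. The number of members whose groups did not overlap, 3 with all libraries, was 5 to 11 when 1 library was left out. Fewer values make separation easier for every gene. The share over all genes was not computed without a library, so these counts cannot be set against the 19.2% found with all 6. Same-numbered libraries did not deviate together over the genes tested (correlations of -0.036, 0.047 and -0.01). These correlations cannot exclude a pairing that affects few genes. Over all genes, 65 were called in the reported fit, 23 with the replicate block and 133 with limma-voom on the recovered reads. With no rule on low counts 0 were called, and 2064 of the 26854 genes then tested had an unadjusted p under 0.05 by limma. Leaving out 1 library gave 0 to 36 calls. The cause of these differences was not tested. S100a10 and Dbp lost their calls with no rule on low counts and with the replicate block. Depth limits Cfb and C2 most.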
